A study of Mus musculus with 138 samples.

Results

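The conjugating enzymes of the mouse lung were described here across 138 mice that had all been challenged with an allergen. Members were the array probes whose target name begins with GST A, K, M, O, P, T or Z, MGST, UGT1, UGT2, UGT3, UGT8 or SULT, and whose detection p was under 0.05 in at least 14 of the 138 mice. Of 80 such probes for 47 genes on the array, 50 probes for 30 genes were kept, out of 24450 kept probes among 45281 in all. The other 17 genes had no kept probe. The filter kept 1 Sult2b1 probe detected in 19 mice and 1 Gsta1 probe detected in 31, and left out probes of Gstp1, Sult1d1 and Gsta1 detected in 9, 8 and 7 mice, respectively. Of the members, 32 were detected in every mouse.

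Whole lung RNA had been hybridised to Illumina WG6v2 bead arrays, and every mouse came from a different partially inbred pre-Collaborative Cross line descended from the 8 founder strains 129S1/SvImJ, A/J, C57BL/6J, CAST/Ei, NOD/LtJ, NZO/H1LtJ, PWK/Ph and WSB/Ei. Each mouse was sensitised intraperitoneally with 10 ug of Der p 1, the house dust mite protease allergen, received 50 ug of it on day 15, and its lung was taken on day 18, 72 hours later. No untreated mouse and no founder strain was analysed here, and sex and age are not given in the sources used here. With 1 mouse a line, differences between mice and between lines cannot be told apart, and the spread below is the spread among these 138 animals. In whole lung, fewer cells of a type and less RNA per cell cannot be told apart.

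Conjugating enzymes make reactive or fat-soluble compounds easier to excrete. Glutathione S-transferases (GST) join the tripeptide glutathione to electrophiles, UDP-glucuronosyltransferases (UGT) transfer glucuronic acid from UDP-glucuronate, and sulphotransferases (SULT) transfer sulphate from the donor PAPS. In the lung, club cells of the small airways are known as a main site of foreign-compound metabolism, and many GST genes elsewhere are induced through the transcription factor NRF2, which binds antioxidant response elements.

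The start-site windows of 5 member genes named in the patterns below are printed, and no link between a window and a pattern was tested. Gsta3, by probe ILMN_3138685, varied with Sult1a1, and Mgst1 carried a probe with 2 levels. Gstm5 ran against Gstm2, Gsto1 rose where mucous genes were high, and Ugt1a6a fell there. Each window runs from 250 bases before to 50 bases after a RefSeq start site in GRCm38.p6, written 5′ to 3′, with a match to the antioxidant response element core TGACNNNGC, read on both strands, in capitals.
Gsta3, chr1:21240335-21240634, plus strand: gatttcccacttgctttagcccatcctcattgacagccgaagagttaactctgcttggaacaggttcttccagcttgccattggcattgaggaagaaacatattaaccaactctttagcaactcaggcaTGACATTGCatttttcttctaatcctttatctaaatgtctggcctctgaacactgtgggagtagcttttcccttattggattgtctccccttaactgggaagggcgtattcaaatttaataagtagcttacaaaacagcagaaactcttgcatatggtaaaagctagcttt
Gstm5, chr3:107895604-107895903, plus strand: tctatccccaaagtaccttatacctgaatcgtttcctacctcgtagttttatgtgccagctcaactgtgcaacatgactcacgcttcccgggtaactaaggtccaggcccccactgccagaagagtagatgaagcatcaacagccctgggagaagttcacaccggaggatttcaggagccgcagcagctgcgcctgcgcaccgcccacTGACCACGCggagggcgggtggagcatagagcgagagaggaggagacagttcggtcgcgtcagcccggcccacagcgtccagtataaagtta
Mgst1, chr6:138140277-138140576, plus strand: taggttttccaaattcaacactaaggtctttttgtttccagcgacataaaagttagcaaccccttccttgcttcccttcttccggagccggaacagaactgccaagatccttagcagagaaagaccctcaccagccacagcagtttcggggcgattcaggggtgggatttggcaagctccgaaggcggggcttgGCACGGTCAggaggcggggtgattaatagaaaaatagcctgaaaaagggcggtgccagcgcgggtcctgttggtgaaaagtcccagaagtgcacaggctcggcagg
Gsto1, chr19:47854723-47855022, plus strand: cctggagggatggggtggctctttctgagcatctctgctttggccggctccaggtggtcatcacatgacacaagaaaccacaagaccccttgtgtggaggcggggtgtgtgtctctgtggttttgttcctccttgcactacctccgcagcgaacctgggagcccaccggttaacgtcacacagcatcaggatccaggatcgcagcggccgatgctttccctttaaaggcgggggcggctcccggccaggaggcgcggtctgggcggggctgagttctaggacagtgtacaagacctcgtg
Ugt1a6a, chr1:88134559-88134858, plus strand: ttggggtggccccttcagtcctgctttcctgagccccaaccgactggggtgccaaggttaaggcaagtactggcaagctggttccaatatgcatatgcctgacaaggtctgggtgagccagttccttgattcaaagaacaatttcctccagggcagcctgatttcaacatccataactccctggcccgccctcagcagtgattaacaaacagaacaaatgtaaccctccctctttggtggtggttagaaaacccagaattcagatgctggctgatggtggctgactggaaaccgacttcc
The core lay on the plus strand in Gsta3 and in Gstm5, where it began 42 bases before the start site. In Mgst1 it lay on the minus strand, its leftmost base 56 before the start site. A further RefSeq start site of Mgst1 has a window at chr6:138141337-138141636, which held no such core and is not printed. Among the 27 member genes with a window, 3 held it, or 11.1%, against 13.99% of 27025 genes with windows. The aryl hydrocarbon receptor core GCGTG, also read on both strands, was in 9 of the 27, or 33.3%, against 35.2% of all genes. The letters of the antioxidant core are not in the windows of Gsto1 and Ugt1a6a. A match is only a string of letters, and binding was not measured.

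Values are the authors' normalised log2 intensities, given to 3 significant digits, so that values of 10 and above move in steps of 0.1. They rank a probe across mice but do not rank probes against each other, and no level of 1 gene is set against that of another. Arrays detected between 19075 and 21472 probes, and every array had a median log2 value of 5.57. Of the lung markers, the club cell secretoglobin Scgb1a1 lay between 12.9 and 13.4 and the surfactant protein Sftpc between 11.6 and 12.7. Other listed markers of these cells reached low values in some mice. Scgb3a2 ran from 7.42 to 12.8, Aldh1a7 from 5.1 to 10.6 and Slc34a2 from 5.19 to 11.5. The mouse of line OR5308 stood apart, with a median correlation of 0.9107 with the other arrays, and where a result rests on it, a value computed after leaving it out is given too. Of 8 listed liver genes, 5 were far above every other mouse there: Apoa1 at 12.7 (others at most 7.33), Apoa2 at 12.8 (8.32), Ttr at 12.4 (7.45), Ahsg at 12.7 (7.34) and Serpina1a at 10.3 (5.86). The probes of the other 3, Alb, Fgb and Tat, were detected in 0 of the 138 mice. Its mean over 6 of 8 listed skeletal muscle markers was 11.87, the highest of the 138 mice, whose median was 6.13. Over 8 of 9 listed cardiac muscle markers the mean ran from 6.15 to 10.7 across mice. Over 9 of 9 T cell markers it ran from 6.32 to 8.0, and over 9 of 9 neutrophil markers from 6.34 to 10.15.

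Most conjugating enzymes varied moderately from mouse to mouse. The median SD of the members was 0.34 log2, against 0.28 over all kept probes, and 13 of 50 members had an SD over 0.5, where 15.8% of all kept probes did. Probes of Mgst1 (SD 2.31), Gstk1 (1.11), Ugt1a9 (0.83), Ugt1a6a (0.8 and 0.77), Sult1d1 and Gsta3 (0.75 each) and Gstp2 (0.7) varied most.

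**Figure D1:**
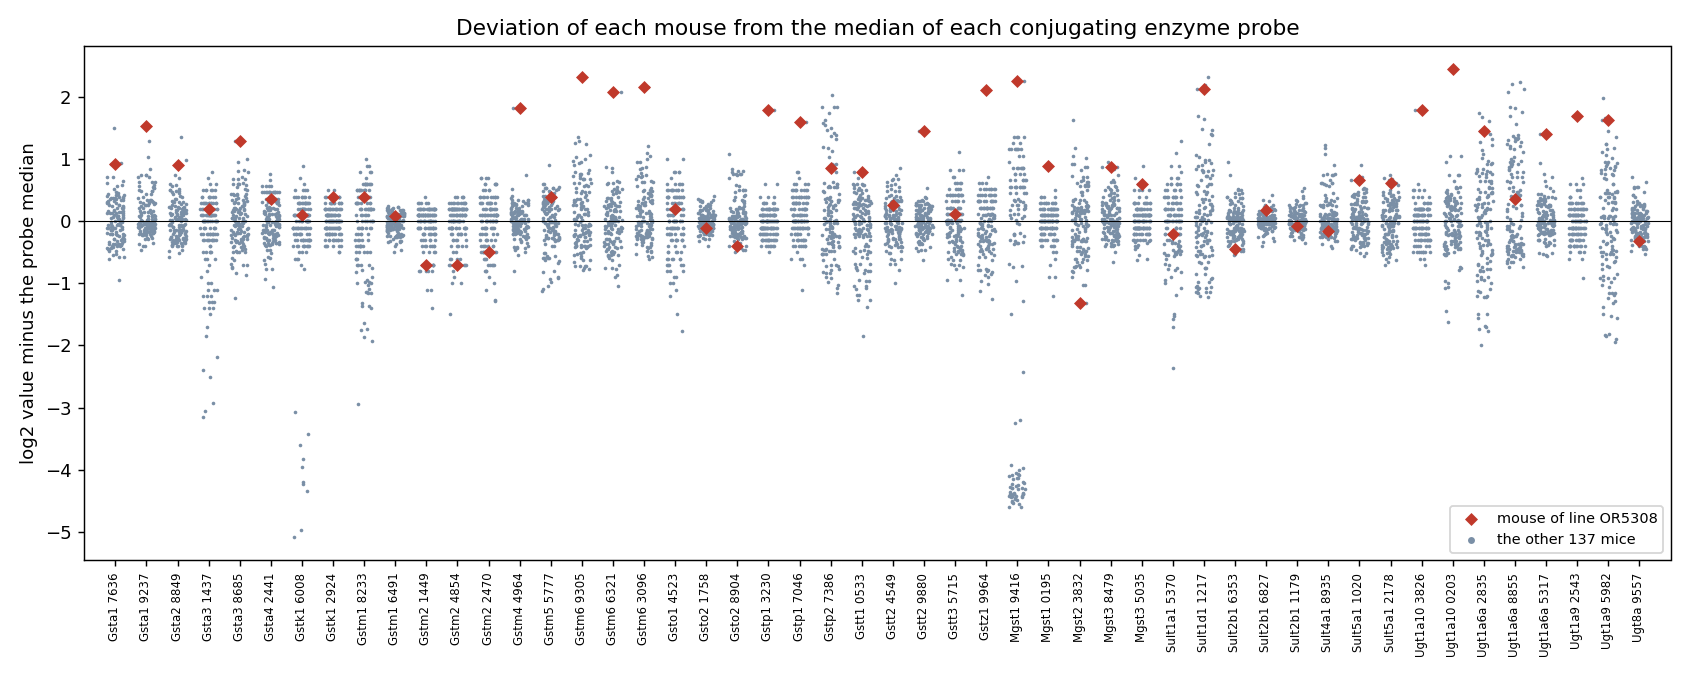
Deviation of each of 138 mice (points) from the median log2 value of each of the 50 member probes (x axis, with the last 4 digits of the probe number). Diamonds mark the mouse of line OR5308. The separate lower clouds of Gstk1 and Mgst1 are the mice at the low level of a 2-level probe.

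The alpha class transferases are cytosolic enzymes, and Gsta3 is known in mice for conjugating the epoxide of aflatoxin. The Gsta3 probe ILMN_1241437 had a lowest value of 8.54, a median of 11.7 and a highest of 12.5, with a long tail on the low side. Its other probe, ILMN_3138685, lay between 6.0 and 8.52 around a median of 7.23, and the probes correlated at r = 0.413 (rho 0.447). Gsta4, which conjugates the lipid peroxidation product 4-hydroxynonenal, was narrower, from 8.58 through a median of 9.64 to 10.4. Gsta1 and Gsta2 stayed close to the detection limit in most mice, with medians of 5.95 and 5.67 and highest values of 7.46 and 7.04, both in the mouse of line OR4559.

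The mu class genes form a cluster on chromosome 3. The Gstm1 probe ILMN_1228233 ranged from 7.75 through a median of 10.7 to 11.7. The 3 Gstm2 probes had medians of 11.1, 12.4 and 12.4, and none read below 9.81. Gstm5 ran from 6.56 to 8.59 around 7.67, and Gstm4 from 5.9 to 8.53 around 6.7. The 3 Gstm6 probes had medians of 7.25, 6.52 and 5.98. Lowest values of Gstm1, Gstm4 and 2 of the Gstm2 probes all came from the mouse of line OR1427.

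In the remaining GST classes, the omega enzyme Gsto1, which reduces dehydroascorbate, lay between 9.93 and 12.7 with a median of 11.7. Its neighbour Gsto2 had probe medians of 6.29 and 5.81. The pi enzyme Gstp1, a well-known lung transferase, had probe medians of 11.1 and 10.5, and Gstz1, which isomerises maleylacetoacetate in tyrosine breakdown, ran from 8.63 through 9.88 to 12.0. The theta enzymes Gstt1, Gstt2 and Gstt3 had ranges of 7.55 to 10.2, 6.51 to 9.56 over both probes, and 8.79 to 11.1. Among the microsomal enzymes, Mgst2, which can make leukotriene C4, ran from 7.16 through 8.47 to 10.1, and the 2 Mgst3 probes had medians of 9.05 and 10.3.

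Among the transferases of other groups, UGT1 enzymes are made from a single locus on chromosome 1 in which separate first exons are spliced to shared exons, so a probe named for 1 of them may read several. The Ugt1a6a probe ILMN_1212835 ranged from 5.71 through 7.7 to 9.44 and the Ugt1a9 probe ILMN_2515982 from 5.93 through 7.88 to 9.87. The Ugt1a10 probes ILMN_2493826 and ILMN_2930203 had medians of 10.8 and 9.45. Ugt8a, which makes galactosylceramide, was near the detection limit with a median of 5.63. Sult1a1, which sulphates phenols, ran from 7.94 through 10.3 to 11.6. Sult1d1, known in mice for sulphating catecholamines, ran from 5.13 through 6.36 to 8.68. Sult2b1, which sulphates cholesterol, had probe medians of 5.94, 5.57 and 6.16, Sult4a1 one of 5.47, and Sult5a1 probe medians of 6.21 and 6.48.

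Probes of 3 member genes fell into 2 separated levels, or 6% of members where 6.06% of all kept probes did, so the share is that of the array. The rule asked for 2 normal components with means at least 1 log2 and 3 pooled SDs apart, and at least 5% of the mice in the smaller. Gstk1, a transferase of mitochondria and peroxisomes, had a low level around 6.63 in 10 mice and a high level around 10.70 in the others by probe ILMN_2776008, with no value between 7.63 and 9.94. Its other probe, ILMN_2792924, had a single level between 10.8 and 11.8. Over the mice the probes correlated at r = -0.0526 (adjusted permutation p = 0.632) and rho = 0.0687 (adjusted permutation p = 0.49). Mgst1, a membrane enzyme that also acts as a peroxidase, had 50 mice around 5.32 and 88 around 9.95 by ILMN_2669416, with a gap between 7.22 and 8.14. Its other probe, ILMN_2940195, lay between 10.5 and 12.6 in all mice. Between the probes r was 0.0876 (adjusted permutation p = 0.387), while rho was 0.189 and passed the threshold (adjusted permutation p = 0.0439). For both genes the probes disagree on a low group, which 1 probe of each does not show.

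Gstp2 had a main group around 8.29 and a higher group around 9.87, which held 23 mice above the midpoint, with the nearest values on the 2 sides at 8.99 and 9.15. Its levels touch more closely than those of Gstk1 and Mgst1. The low levels did not divide along the title numbers of the samples: Mgst1 was low in 25 of 72 mice with low title numbers and in 24 of 64 with high ones, and Gstk1 in 5 and 4. Of the 10 mice low for Gstk1, 5 were among the 50 low for Mgst1.

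**Figure D2:**
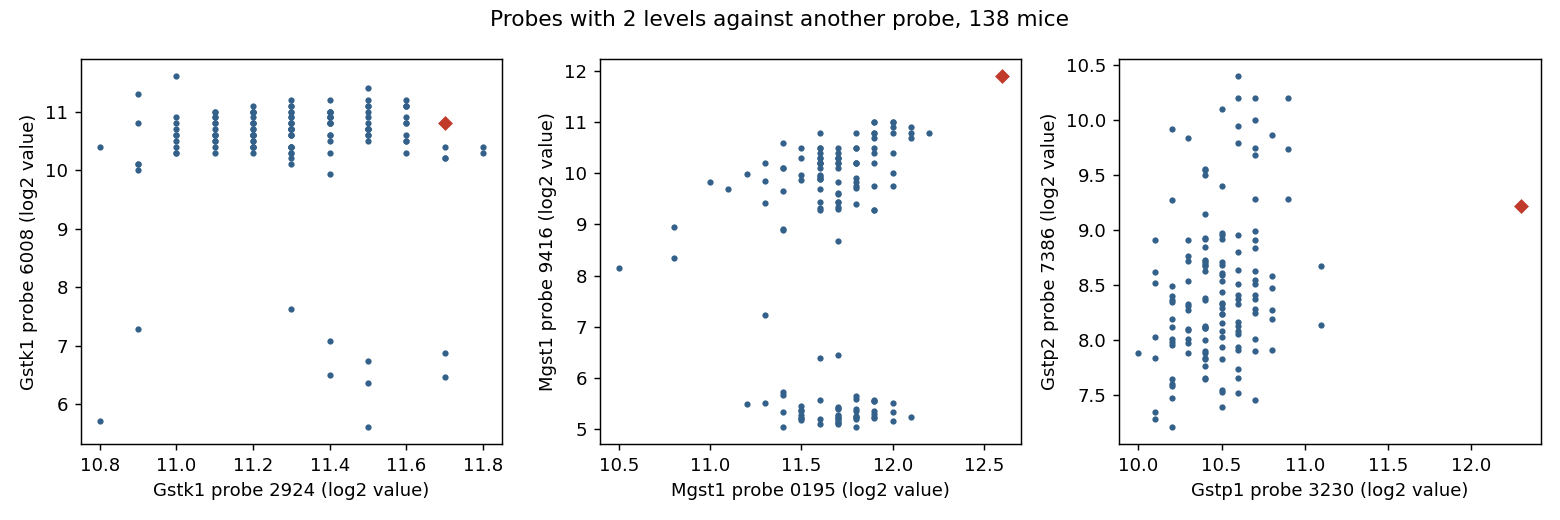
Log2 values of the 3 probes with 2 levels (y axes) against another probe of the same gene, or of Gstp1 for Gstp2 (x axes), in 138 mice. The diamond is the mouse of line OR5308. Low groups of 10 mice for Gstk1 and 50 for Mgst1 lie within the range of the other probe.

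Genes like these probes were sought outside the families, and symbols of clone-like or predicted form, or ending in a hyphen and a number, were passed over. Among the remaining kept genes, the 3 most like each probe over the 138 mice lay on its chromosome in every case. For Gstk1 on chromosome 6 they were Dennd2a (r = 0.822), Mkrn1 (0.733) and Repin1 (-0.673), with 44, 45 and 59 protein-coding genes between. For Mgst1, also on chromosome 6, they were Art4 (r = 0.597), Aebp2 (-0.525) and Gprc5a (0.511), with 10, 7 and 28 genes between. For Gstp2 on chromosome 19 they were Eif1ad (r = -0.679), Tmem134 (-0.659) and Snx15 (-0.658), with 60 and 5 genes between for the former pair, while Snx15 lay farther off than either. Rank correlations were smaller in size for Gstk1, at 0.159, 0.354 and -0.453, and for Gstp2, at -0.543, -0.482 and -0.409. For Mgst1 they were 0.547, -0.521 and 0.494. These genes were picked for likeness, so the values are descriptions over 138 mice that share an array type. Neither genotypes nor probe sequences were used here, and a difference in transcript level cannot be told apart from a change in the sequence under the probe.

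Within a subfamily, positive relations outnumbered negative ones. Of 85 pairs of probes for different genes of a subfamily, 50 passed an adjusted permutation p of 0.05 for r, as did 19 of 24 pairs for the same gene. Of these 69, 63 were positive and 6 negative. The share of all pairs of kept probes that pass was not computed, so these counts are not read as a trait of the families. A small r was enough, as Gstm5 and Gstm6 ILMN_1246321 passed at r = 0.19 (adjusted permutation p = 0.0395). Without the mouse of line OR5308 63 pairs passed, and within the low and high title numbers 49 and 54 did. Within the alpha class all 15 pairs passed and were positive. Gsta1 ILMN_2657636 and Gsta2 had r = 0.861 and rho = 0.845 (adjusted p = 3.21e-05), and 0.845 without the 2 mice farthest from the median. Their coding sequences are close relatives, and reads of each other by their probes were not tested.

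The mu class split. Gstm1 ILMN_1228233 followed the 3 Gstm2 probes with r between 0.707 and 0.722 (rho 0.564 to 0.642, adjusted p = 3.21e-05). The other Gstm1 probe, ILMN_2626491, followed these Gstm2 probes less closely, with r of 0.432, 0.199 and 0.226 (rho 0.434, 0.175 and 0.189). Its adjusted permutation p for r was 3.21e-05, 0.0319 and 0.0123, and for rho 3.03e-05, 0.0637 and 0.0437. Gstm5 ran against the same 3 Gstm2 probes, with r of -0.345, -0.324 and -0.358 (rho -0.296, -0.311 and -0.371), and adjusted p of 0.000186, 0.000315 and 8.61e-05. Without the 2 farthest mice r was -0.329, -0.338 and -0.38, and within the ranges of title numbers it stayed between -0.306 and -0.355. Gstm6 ILMN_1246321 also ran against 2 Gstm2 probes, at -0.285 and -0.28 (rho -0.251 and -0.233, adjusted p 0.00187 and 0.00224). Within the low title numbers these calls ended (adjusted p = 0.128 and 0.0919), and within the high ones they held (adjusted p = 0.00413 and 0.0082). They rest on 1 of the 3 Gstm6 probes. ILMN_1219305 and ILMN_2633096 had r between -0.0758 and -0.12 with the same 2 Gstm2 probes (adjusted permutation p 0.227 to 0.459). With the remaining Gstm2 probe, ILMN_2862470, Gstm6 ILMN_1246321 had r = 0.0327. Gstm4 and the 3 Gstm6 probes had r of 0.299, 0.292 and 0.306, with rho of 0.141, 0.127 and 0.0995, and once the mouse of line OR5308 was left out r was 0.0774, 0.122 and 0.108. In the theta class, Gstt1 ran against Gstt3 at r = -0.285 (rho -0.321, adjusted p = 0.00166, and -0.293 without the 2 farthest mice). Within the low title numbers r was -0.312 (adjusted p = 0.0198) and within the high ones -0.234 (adjusted p = 0.101), where the call ended.

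Ugt1a6a ILMN_1212835 and Ugt1a9 ILMN_2515982 were nearly the same measurement, with r = 0.989 and rho = 0.988 (adjusted p = 3.21e-05). The Ugt1a10 probe ILMN_2930203 followed them at 0.851 and 0.857. Ugt1a10 ILMN_2493826 and Ugt1a9 ILMN_1222543 formed a further pair at r = 0.933 (rho 0.925), and the members of the pairs correlated with each other at about 0.5, from 0.5 to 0.533. Among the 3 Ugt1a6a probes, ILMN_2418855 and ILMN_1212835 correlated at r = 0.364 (rho 0.376, adjusted p = 6.06e-05). ILMN_2795317 had r = 0.142 with ILMN_1212835 and 0.0364 with ILMN_2418855 (adjusted p 0.145 and 0.737).

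**Figure D3:**
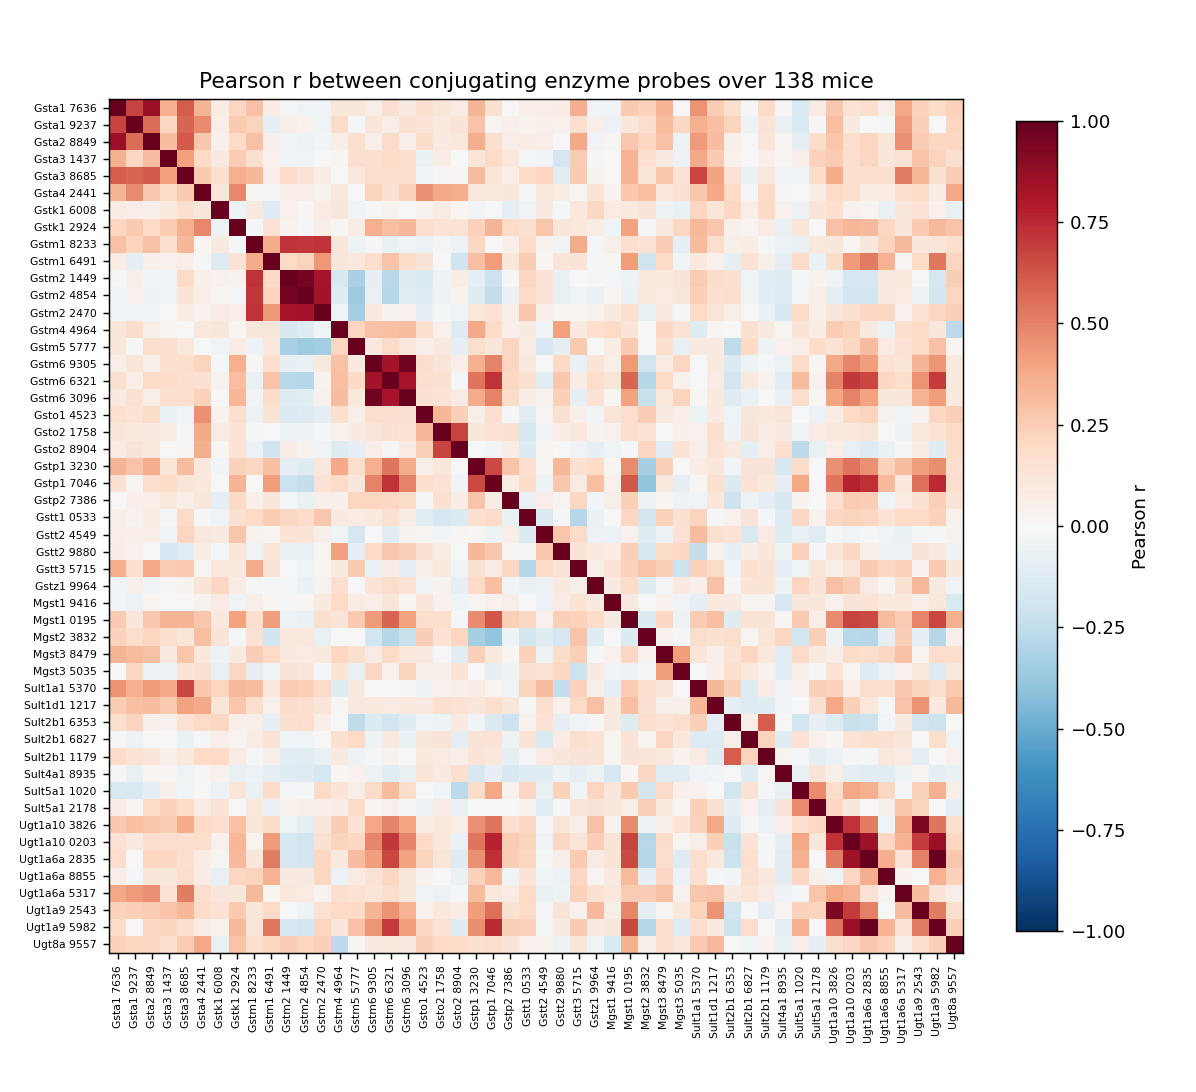
Pearson r over 138 mice between all pairs of the 50 member probes, ordered by subfamily, with the colour scale from -1 to 1. Blocks stand out for Gsta, Gstm1 with Gstm2, Gstm6 and Ugt1, as do the off-diagonal squares that join Gstp1, Gstm6 and Mgst1 with Ugt1.

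Relations across subfamilies were looked for after the values were seen. Of 1116 pairs of probes from different subfamilies, 159 positive and 10 negative pairs passed an adjusted p of 0.05 by both r and rho. In 12 pairs, or 1.08%, r was beyond 0.6 in size, near the 0.871% of all pairs of kept probes. For the adjusted p no such share over all pairs was computed. Of these 12, 11 joined the same 6 probes: Gstp1 ILMN_2677046, Gstm6 ILMN_1246321, Mgst1 ILMN_2940195, Ugt1a6a ILMN_1212835, Ugt1a9 ILMN_2515982 and Ugt1a10 ILMN_2930203. The UGT1 probes among them correlated with each other at 0.851 to 0.989, so pairs with them partly repeat each other. Gstp1 correlated with Ugt1a10 at r = 0.773 (rho 0.703) and with Ugt1a6a at 0.731 (rho 0.715), and Gstm6 with Gstp1 at 0.722 (rho 0.654), each with an adjusted p of 0.000192 for r. Mgst1 followed Ugt1a6a at r = 0.659 (rho 0.612). By its other kept probe, ILMN_1223230, Gstp1 correlated with Ugt1a10 ILMN_2930203 at r = 0.532 and with Ugt1a6a ILMN_1212835 at 0.461. Without the mouse of line OR5308 these were 0.382 and 0.461. Gstm6 ILMN_1219305 and ILMN_2633096 correlated with Gstp1 ILMN_2677046 at 0.495 and 0.493, and at 0.417 and 0.403 without that mouse. Over the 12 pairs r was 0.621 to 0.773 in all mice, 0.577 to 0.746 without the mouse of line OR5308, 0.521 to 0.734 without the 2 farthest mice, and 0.464 to 0.812 within the ranges of title numbers. The remaining pair was Gsta3 ILMN_3138685 with Sult1a1, at r = 0.669 (rho 0.658) and 0.671 without the 2 farthest mice. On the negative side, Mgst2 ran against Gstp1 ILMN_2677046 at r = -0.394 (rho -0.372, adjusted p = 0.000192) and against Ugt1a6a ILMN_1212835 at -0.284 (rho -0.293, adjusted p = 0.00675).

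To set the members against the state of each lung, scores were made from lists of genes that hold no member, and limma was fitted across all kept probes. A score is the mean of the standardised list genes, scaled to an SD of 1, and a slope is the change of a probe in log2 per SD of the score, with its standard error over 138 mice. Called means an adjusted p under 0.05 over all probes. The lists differ in how well their genes hold together, with a mean pairwise r of 0.647 for the mucous list, 0.419 for the type 2 immune list, 0.337 for the ciliated cell list, 0.191 for the alveolar type 2 cell list, 0.106 for the club cell list and 0.0627 for the NRF2 list. The NRF2 score therefore stands for little common variation, and the club cell score for not much more. The mucous and type 2 immune scores correlated at r = 0.597 (rho 0.628, adjusted permutation p = 7.5e-05 over 15 pairs of scores, and 0.568 without the 2 farthest mice), and the club and ciliated scores at 0.514 (rho 0.488, adjusted p = 7.5e-05, and 0.475). Each fit shares these mice, so fits are not independent of each other.

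**Figure D4:**
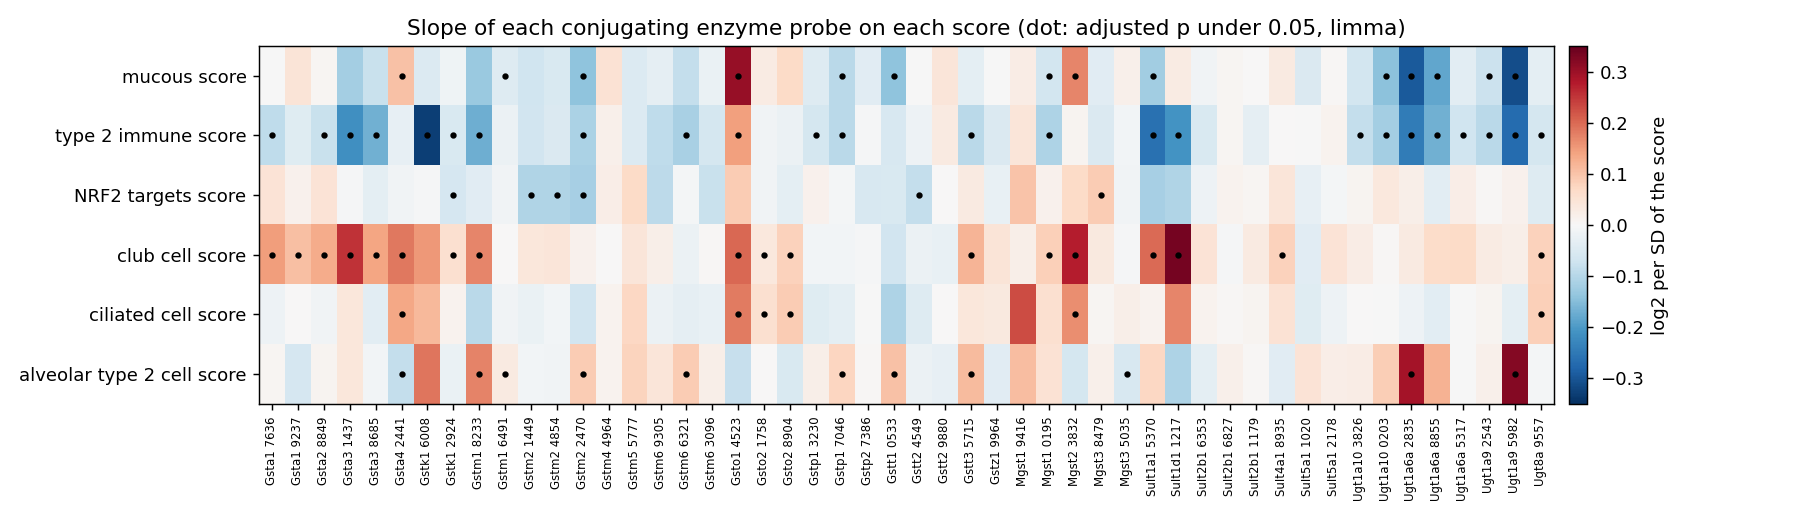
Slope of each of the 50 member probes (x axis, last 4 digits of the probe number) on each of 6 scores (y axis), in log2 per SD of the score over 138 mice. Dots mark an adjusted p under 0.05 in limma. Blue dominates the type 2 immune row, with 23 falling and 1 rising, and red the club cell row, with 18 rising and 0 falling.

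Where type 2 immune genes were high, 16 of the 30 conjugating enzyme genes had a probe that fell and 1 had a probe that rose. The type 2 immune score is built from 15 genes of allergic inflammation such as Retnla, Chil4, Arg1 and Ccl11. Of 50 members, 23 fell and 1 rose with it. Over all probes 23.9% were called, 12.7% falling and 11.2% rising. The median slope was -0.06 over the members and -0.00467 over all probes. All 7 UGT1 probes fell, as did Sult1a1, Sult1d1, both Gstk1 probes and 4 of 6 alpha probes. The slope was -0.26 ± 0.04 for Sult1a1 (SE, adjusted p = 2.28e-07), -0.27 ± 0.07 for Ugt1a9 ILMN_2515982 (adjusted p = 0.000907), -0.25 ± 0.06 for Ugt1a6a ILMN_1212835 (adjusted p = 0.00197) and -0.21 ± 0.06 for Sult1d1 (adjusted p = 0.00609). Both Gsta3 probes fell, at -0.21 and -0.17, and Mgst1 ILMN_2940195 fell at -0.11 ± 0.02 (adjusted p = 2.15e-05). The slope of -0.33 for Gstk1 ILMN_2776008 rests on a probe with 2 levels, while that of its other probe was -0.05. Gsto1 rose, at 0.14 ± 0.04 (adjusted p = 0.00393).

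A pair of mice at the top of the score, OR5087 at 3 SD and OR1427 at 2.9 SD, carried part of the type 2 result. Each of them held the lowest value of 6 members. Without both, 13 members fell and 1 rose, and those 14 were among the 24 called with all mice. That was 28% of members, against 19.8% of all probes. Sult1a1 then had a slope of -0.19, Ugt1a9 ILMN_2515982 one of -0.25 and Ugt1a6a ILMN_1212835 one of -0.23. The calls that ended included those of Gsta1, Gsta2, Gstm1, Gstm2, Gstt3 and Ugt8a, with others not named here. Within the low title numbers 4 members fell and 1 rose, 10% of members against 6% of all probes. Within the high ones 9 fell and 0 rose, or 18% against 17.8%, a share near that of the array. All 24 called members kept their sign in both ranges. Under the type 2 score the UGT1 calls ended once the mucous score was a covariate, with Ugt1a6a ILMN_1212835 at -0.11 (adjusted p = 0.364). In that fit 16 members fell and 0 rose, 10 of them among the 24 (32%, against 20.3% of all probes). With muscle and adipose scores as covariates 20 members were called, 18 of them among the 24 (40%, against 20.3% of all probes).

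Where mucous genes were high, Gsto1 and Mgst2 were high and 5 of 7 UGT1 probes low. The mucous score is built from 10 genes of mucus-making airway cells, such as Muc5ac, Muc5b, Clca1 and Slc26a4. Of 50 members, 11 fell and 3 rose, where 26.1% of all probes were called, 15.1% falling and 11.1% rising, so the share of members called is near that of the array. The median slope was -0.04 over the members and -0.00159 over all probes. Gsto1 rose by 0.31 ± 0.03 per SD (adjusted p = 6.49e-13). Mgst2 rose at 0.17 ± 0.04 (adjusted p = 0.00078) and Gsta4 at 0.10 ± 0.03 (adjusted p = 0.00309). The Ugt1a9 probe ILMN_2515982 fell at -0.31 ± 0.07 (adjusted p = 0.000155) and Ugt1a6a ILMN_1212835 at -0.29 ± 0.06 (adjusted p = 0.000208). Smaller falls were found for Ugt1a10 ILMN_2930203 and Gstt1 (-0.14 each), Sult1a1 (-0.12) and Gstp1 ILMN_2677046 (-0.09).

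Gsto1 rose with the mucous score in both ranges of title numbers, at 0.28 (adjusted p = 1.1e-05, 72 mice) and 0.34 (adjusted p = 6.95e-06, 64 mice), and Ugt1a6a ILMN_1212835 fell in both, at -0.32 and -0.29 (adjusted p = 0.00678 and 0.0456). The counts within the low range were 3 rising and 6 falling, 18% of members against 10.6% of all probes. Within the high range they were 2 rising and 3 falling, 10% against 11.5%. With the type 2 score as a covariate the mucous fit called 7 members rising and 5 falling, 8 of them among the 14. That was 24% of members, against 20.3% of all probes. Of the 5 UGT1 calls 3 ended, those of Ugt1a10 ILMN_2930203, Ugt1a6a ILMN_2418855 and Ugt1a9 ILMN_1222543 (adjusted p = 0.0966, 0.266 and 0.537), and the Sult1a1 slope turned from -0.12 to 0.05 (adjusted p = 0.54). Gsto1 behaved the other way round: its rise with the type 2 score turned to -0.06 (adjusted p = 0.362) once the mucous score was a covariate. Without the mouse of line OR5308 the mucous fit called 19 members, 4 rising and 15 falling (38%, against 27.1% of all probes).

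Where club cell genes were high, 18 members rose and 0 fell, against 12.4% of all probes called, 6.08% rising and 6.32% falling. The median slope was 0.04 over the members and -0.0019 over all probes. The club cell score holds 12 genes, among them Scgb1a1, Scgb3a2 and Cyp2f2. Sult1d1 rose by 0.34 ± 0.06 per SD (adjusted p = 5.09e-06), Mgst2 by 0.27 ± 0.04 (adjusted p = 4.85e-09) and Gsta4 by 0.19 ± 0.02 (adjusted p = 4.85e-09). All 6 alpha probes rose, as did all 3 omega probes, with Gsto1 at 0.20 and Gsta3 at 0.25 and 0.14, and so did Sult1a1 at 0.20. None of the 7 UGT1 probes and none of the 3 pi probes was called. The type 2 and club cell scores correlated at r = -0.244 (adjusted p = 0.00855), with rho = -0.145 (adjusted p = 0.129) and r = -0.122 without the 2 farthest mice.

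Without 4 foreign-compound enzyme genes of the list (Cyp2f2, Cbr2, Aldh1a1 and Aldh1a7), an alternative chosen after the data were seen, 12 members rose and 0 fell, all 12 among the 18. That was 24% of members, against 5.98% of all probes. Gsta3 then had slopes of 0.17 and 0.07 and Sult1a1 of 0.11, and neither gene was called (adjusted p between 0.102 and 0.277). Without the 2 mice farthest from the median score, OR5087 at -3.76 SD and OR900 at 2.66 SD, 13 members rose (26%, against 8.39% of all probes called). With muscle and adipose scores as covariates 15 were called, 14 of them among the 18 (30%, against 9.5% of all probes). Within the low and high title numbers 8 and 7 rose and 0 fell (16% and 14%, against 11.5% and 2.12% of all probes called). Sult1d1 had slopes of 0.35 in both ranges (adjusted p = 0.00118 and 0.0275), and Mgst2 of 0.28 in both.

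**Figure D5:**
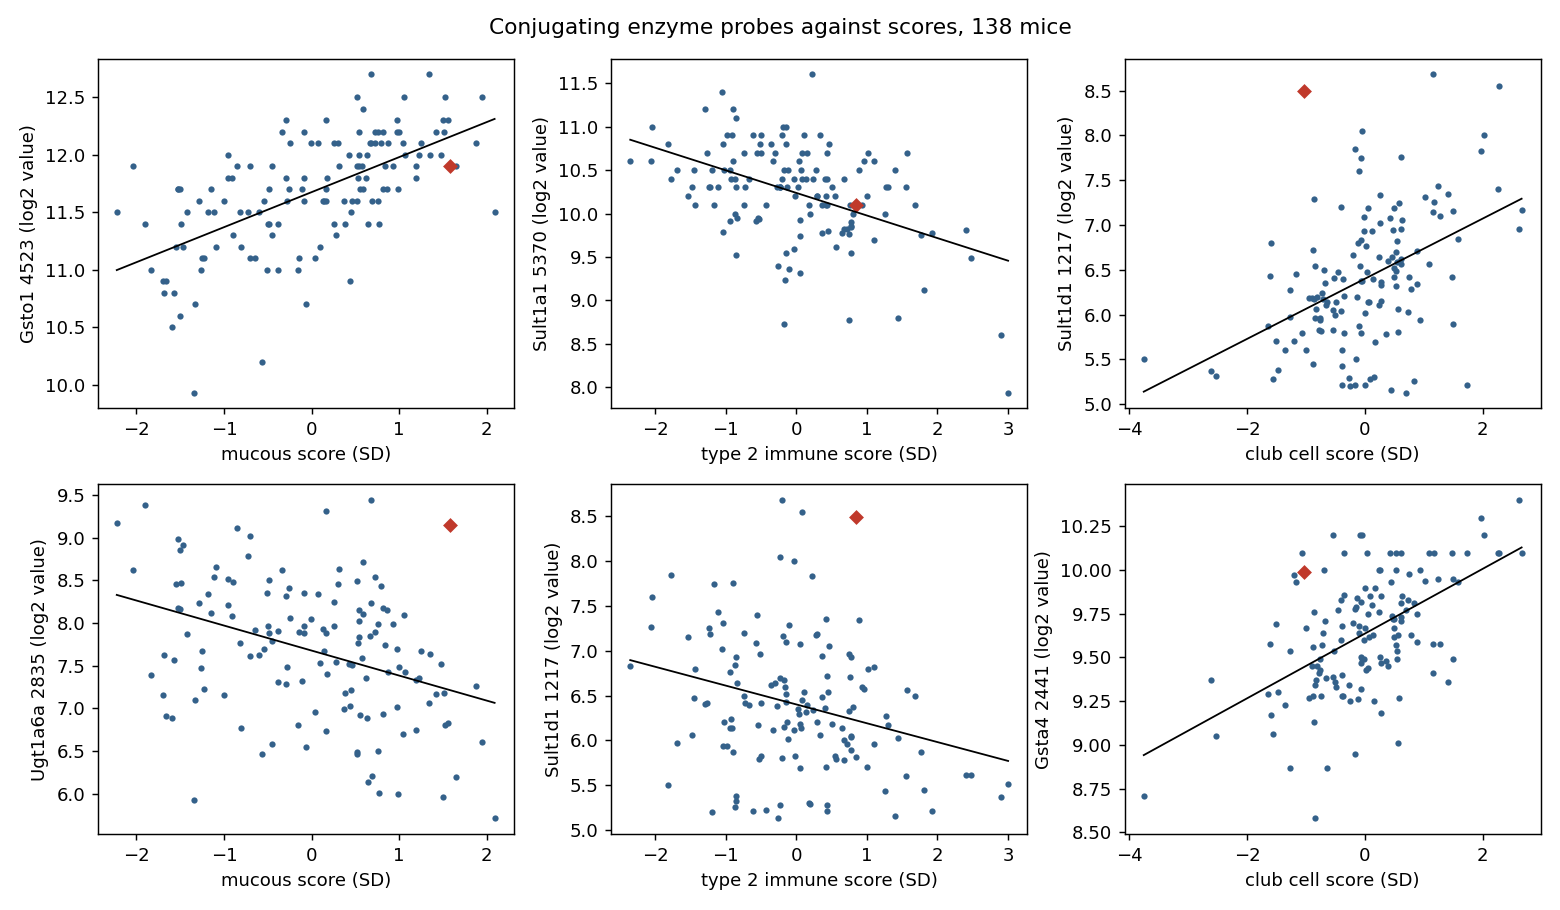
Log2 values of member probes (y axes) against scores in SD (x axes) in 138 mice, with the fitted slope as a line. From left to right the columns hold the mucous score with Gsto1 and Ugt1a6a, the type 2 immune score with Sult1a1 and Sult1d1, and the club cell score with Sult1d1 and Gsta4, and the diamond is the mouse of line OR5308. Gsto1 rises by 0.31 per SD of the mucous score, and Sult1a1 falls by 0.26 per SD of the type 2 score.

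With the ciliated cell score, from 11 genes of motile cilia, 6 members rose and 0 fell, where 6.11% of all probes were called, 4.67% rising and 1.44% falling. The median slope was 0.000991 over the members and -0.00328 over all probes. The 6 were Gsto1 (0.18 ± 0.04, adjusted p = 0.000346), Mgst2 (0.16 ± 0.04, adjusted p = 0.00314), Gsta4 (0.14 ± 0.03, adjusted p = 4.82e-05), both Gsto2 probes (0.09 and 0.06) and Ugt8a (0.08). All 6 were also called in the club cell fit, whose score correlates with this one. Within the ranges of title numbers 1 and 2 members rose, with the share of all probes in those fits not reported here.

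With the alveolar type 2 cell score 9 members rose and 2 fell, where 39.7% of all probes were called, 19.5% rising and 20.1% falling, so the share of members called, 22%, is below that of the array. The median slope was 0.02 over the members and -0.00439 over all probes. Ugt1a9 ILMN_2515982 rose by 0.32 ± 0.06 per SD (adjusted p = 2.88e-05) and Ugt1a6a ILMN_1212835 by 0.29 ± 0.06 (adjusted p = 9.78e-05), followed by Gstm1 at 0.17, while Gsta4 fell at -0.08 and Mgst3 ILMN_2615035 at -0.06. Within the ranges of title numbers 3 members rose in each and 0 fell, with the share of all probes in those fits not reported here. Ugt1a6a ILMN_1212835 rose in both, at 0.24 and 0.36.

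With a score of 16 NRF2 target genes such as Gclm, Srxn1 and Hmox1, 5 members fell and 1 rose, where 15.9% of all probes were called, 9.18% falling and 6.76% rising, and the median slope was -0.00575 over the members and -0.0018 over all probes. The 3 Gstm2 probes fell, at -0.11, -0.11 and -0.12, as did Gstt2 ILMN_2554549 (-0.08) and Gstk1 ILMN_2792924 (-0.06), and Mgst3 ILMN_1238479 rose at 0.09. Without the mice of lines OR4559 and OR1427, at 3.71 and 2.86 SD, 0 members rose and 1 fell (2%, against 10.9% of all probes). Of the 3 member genes with the antioxidant core, none had a called probe.

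The genes that supply and use the cofactors of conjugation come next. Over all probes 11.2% rose and 12.7% fell with the type 2 score, and 11.1% rose and 15.1% fell with the mucous score. With the club cell score 6.08% rose and 6.32% fell. Of 16 measured genes of glutathione supply and use, 4 rose and 3 fell with the type 2 score: the cystine transporter Slc7a11 (0.28), the glutaredoxin Glrx (0.19), Ggt5 (0.15), which cleaves glutathione conjugates, and Gpx1 (0.03) rose, and Oplah (-0.09), Gpx3 (-0.06) and the glutathione synthetase Gss (-0.06) fell. With the mucous score 5 rose, Gpx2 at 0.24 and the glutathione reductase Gsr at 0.13 ahead, and 0 fell. The gene of NRF2 itself, Nfe2l2, fell with both scores, at -0.11 (adjusted p = 0.027) and -0.19 (adjusted p = 1.32e-05). Of 5 measured genes of PAPS supply and sulphate removal, 0 were called with the type 2, mucous or club cell score.

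Oxidation and hydrolysis often come before conjugation. Of 19 measured genes of oxidation and hydrolysis, 13 fell and 1 rose with the type 2 score. Over all probes 12.7% fell and 11.2% rose with it. Falling genes included Aldh3a1 (-0.36), Cyp2a5 (-0.31) and Cyp2e1 (-0.27), while Cyp1b1 rose (0.11). With the club cell score 10 of 16 rose and 0 fell, where 6.08% of all probes rose and 6.32% fell. Among the 10 were Cyp2a5 (0.47), Aldh3a1 (0.33) and Cyp2s1 (0.24). The club cell list itself holds Cyp2f2, Cbr2 and Aldh1a1 of these genes, which were left out of that fit. The score without its foreign-compound genes was not tried for these genes. With the mucous score 4 of the 19 rose and 6 fell, where 11.1% of all probes rose and 15.1% fell. The efflux transporter Abcc5 fell with the type 2 score, at -0.07. The glucuronidase Gusb, which hydrolyses glucuronides, rose with it (0.11). The nucleotide sugar transporter Slc35d2 fell with the mucous (-0.08) and club cell (-0.09) scores, and with the type 2 score it had an adjusted p of 0.996.

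The mouse of line OR5308 had the highest value of 16 of 50 members, or 32%, where it was highest for 6.06% of all kept probes and no other mouse was highest for more than 4 members. It exceeded the next mouse by more than 1 log2 at 6 members, and the share of all kept probes that do so was not computed. Gstz1 was 12.0 there against at most 10.6 elsewhere, Gstp1 ILMN_1223230 12.3 against 11.1, Gstm6 ILMN_1246321 9.34 against 8.13, Gstm4 8.53 against 7.44, and the Ugt1a10 probes 12.6 against 11.4 and 11.9 against 10.5. Mgst2 was the exception, at 7.16 the lowest of all mice. Among the 30 probes of the families that the filter left out, 7 were more than 1 log2 above every other mouse there. The share over all left-out probes was not computed. Ugt2b36 was 12.1 against at most 5.71, Ugt3a1 10.3 against 5.73 and Ugt1a1 8.51 against 5.59. The plasma protein and skeletal muscle genes high in the same mouse are given above, and their part in these values was not tested.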

How the data were processed

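Lung RNA of 138 mice in 1 group was measured on Illumina WG6v2 arrays. Per the submitters' processing notes, GenomeStudio, R 2.9.2 and RMA were used, and the series text adds quantile normalisation and log2 transformation. The deposited log2 values were the values used, and the deposited scanner intensities and detection p-values served for the filter and for 1 alternative. Every deposited log2 column matched its own scanner array best. Names were updated through RefSeq, by symbol for 74 of the 80 probes of the families and by a unique synonym for 6. Each probe was kept apart.

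Members and gene lists were chosen with earlier results of these data known. Score fits used limma 3.58.1 in R 4.3.3 with Benjamini-Hochberg adjustment over all kept probes. A list gene was left out of the fit it scores. Correlations had 2-sided permutation tests with 100000 permutations, with a smallest possible p of 1e-05, adjusted over their pairs. Levels came from mixtures fitted in Python 3.11.15 (numpy 2.4.6), and a gain in BIC over 10 was asked. Scripts were tested on simulated data. Mice were also split by the number in the sample title (35 to 87 in 72 mice, 125 to 188 in 64, none used in 2), which the labels do not explain. Alternatives were neqc values (offset 16), other filters, that split as a block, left-out mice and covariates. Leaving out the mouse of line OR5308 and the relations across subfamilies were chosen after seeing the data. Any member could be named. Each fit named at most 10 called members a direction by size of slope, and each pathway list at most 4 genes, of which some are not reported here. A probe with 2 levels named the 3 genes outside the families with the largest r in size, after symbols of clone-like or predicted form were passed over. The number of arrays, with 1 mouse a line, limits the precision.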

Additional observations from a re-analysis of the deposited data

How the results depend on the processing

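Of 79 calls of members in the score fits, 31 held in every alternative that was run and 48 were lost in at least 1. Of the same calls, 78 of 79 held with neqc values, 78 with the range of title numbers as a block, 78 without the mouse of line OR5308, 74 with the number of detected probes as a covariate, 65 with no filter on detection, 61 with muscle and adipose scores as covariates and 53 without the 2 mice farthest from the median score. The type 2 count of 24 became 12 over probes detected in every mouse and 14 without the 2 farthest mice. Over probes detected in every mouse that was 37.5% of members, against 27.5% of all probes. The NRF2 count of 6 became 1 without its 2 farthest mice. The club cell count of 18 became 11 over probes detected in every mouse, of which fewer could be tested. That was 34.4% of members, against 18.2% of all probes. The alveolar type 2 count of 11 became 7 with the number of detected probes as a covariate. The share of all probes in that fit is not reported here. Members with 2 levels went from 3 to 5 when means 2 pooled SDs apart sufficed, and members past the SD threshold from 13 to 36 at a threshold of 0.3, both by construction. Of all kept probes, 7.26% and 45.8% passed these looser thresholds. Turned slopes were those of Sult1a1 on the mucous score (0.0508 with the type 2 score as a covariate) and of Gsto1 on the type 2 score (-0.0582 with the mucous score as a covariate). The cause was not tested. The mucous fit over probes detected in every mouse was not run, since too few list genes remained. No paired analysis was possible because there is 1 group of mice. Near the detection limit, as for Gsta1, Gsta2, Sult4a1 and Ugt8a, signal over background limits what a slope can show.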

Other observations

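The low level of Mgst1 ILMN_2669416, around 5.32 in 50 of 138 mice, is near the lowest values of the deposited table, which start at 4.68, while the other Mgst1 probe never fell below 10.5. Among the probes that the filter left out, Sult1c2 reached 6.82 and Ugt2a3 reached 7.72 in the mouse of line OR5308, against at most 5.71 and 5.46 in the other mice. The mouse of line OR5232 held the lowest value of 6 members, as many as OR1427 and OR5087, although it was not among the 2 mice left out of any score fit.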
